A study of Mus musculus with 4 samples.

Results

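The genes described here are 45 targets of serum response factor (SRF) and parts of the actomyosin cytoskeleton, out of 25814 genes listed in the RNA-seq tables. They were chosen by name: Srf itself, actins, actin-binding proteins of the calponin, transgelin and tropomyosin families, nonmuscle and smooth muscle myosin subunits, actin crosslinkers and focal adhesion proteins, LIM domain proteins and actin turnover factors. All 45 were found in the tables by their symbols. RNA was sequenced from keratinocytes (KCs), which make up most of the epidermis, after they had been isolated from tail skin of adult 129/sv mice and cultivated in vitro without treatment, in serum-free medium low in calcium. One genotype was wild-type (WT, 2 libraries) and the other was Nfat5-/- (2 libraries), in which the gene for the osmotic stress-controlled transcription factor NFAT5 is disrupted in the whole animal. Per the study's methods the WT mice were siblings of the Nfat5-/- mice, and tails of both were shipped overnight on ice before the KCs were prepared. The comparison asks how the RNA levels of these genes differ between KCs with and without NFAT5.

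SRF is a transcription factor that binds a short DNA element, the CArG box, together with cofactors of the myocardin family (myocardin, MRTF-A and MRTF-B) or of the ternary complex factor family. The MRTFs bind actin monomers and are held in the cytoplasm by them, so that assembly of monomers into filaments frees the MRTFs to enter the nucleus and act on genes for actin and its partners. Many of these proteins come in related versions, of which some are typical of smooth or striated muscle (Acta2, Cnn1, Tagln, Myl9) and others are made in nearly every cell (Actb, Cnn2, Tagln2, Myl12a). In KCs the nonmuscle versions build the cortical actin, stress fibres and the actin belts that attach to cell junctions and to the basement membrane.

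Depth was 16219445 to 23494436 gene reads per library, at which 3 reads, the smallest level considered detectable, equal 0.128 to 0.185 CPM (counts scaled to library size). That floor covers counting error only. The libraries carried the markers of KCs: Krt5, a keratin of the basal layer, lay between 4990 and 5775 RPKM (reads scaled to exon length and library size), while Krt15, another basal keratin, stayed below 0.5 RPKM in every library. RNA of Nfat5 itself gave 408 and 929 reads in WT and 715 and 770 reads in Nfat5-/- KCs (log2 fold change 0.09 ± 0.26 SE, adjusted p = 0.913). The tables count reads over the whole gene and do not separate a deleted part, so this level does not check the genotype labels. The series calls the 2 libraries of a genotype independent experiments, and the paper speaks of WT and Nfat5-/- sibling mice as their source without tying a library to an animal, so the p-values measure only the spread between these libraries.

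Of the 45 genes, 43 had enough reads to be tested, and 41 of these had a positive log2 fold change in Nfat5-/- relative to WT KCs, against 48.0% of the 12614 genes tested in all. On exon reads 40 of 43 were positive and on uniquely placed exon reads 39 of 42, with Fhl2 negative in both. The median log2 fold change of the 43 genes was 0.44, beside -0.010 for all genes. At an adjusted p under 0.05 (edgeR, Benjamini-Hochberg over all genes tested) 5 of the 43 were called, and all 5 were higher in Nfat5-/- KCs: Acta2, Tagln, Cnn1, Myl9 and Csrp1. Among all genes tested 1.27% were called in either direction, 0.943% were called higher and 0.325% were called lower. At an unadjusted p under 0.05, 27 of the 43 were higher in Nfat5-/- KCs, beside 8.17% of all genes, and 0 were lower, beside 6.47%. In 36 genes both Nfat5-/- libraries lay above both WT libraries in RPKM, beside 21.6% of all genes, and in 1 gene, Pdlim1, both lay below, beside 25.0%. The 45 genes were chosen with earlier results of these data known, so these counts describe the choice. The plot of fold changes shows the called genes near the upper end of their groups. The number of called genes depended on the treatment of low counts, with 25 called without the filter on low counts, beside 1137 of 18043 genes in all. It depended on the tool, with 16 called by DESeq2, beside 427 of 12614 genes in all. DESeq2 added Acta1, Cnn2, Tpm1, Tpm2, Cald1, Actn4, Pdlim5, Palld, Filip1l, Lmod1 and Synpo2 to the 5 genes. The number also depended on the libraries, with fewer called when Nfat5-/- replicate 2 was left out.

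**Figure D1:**
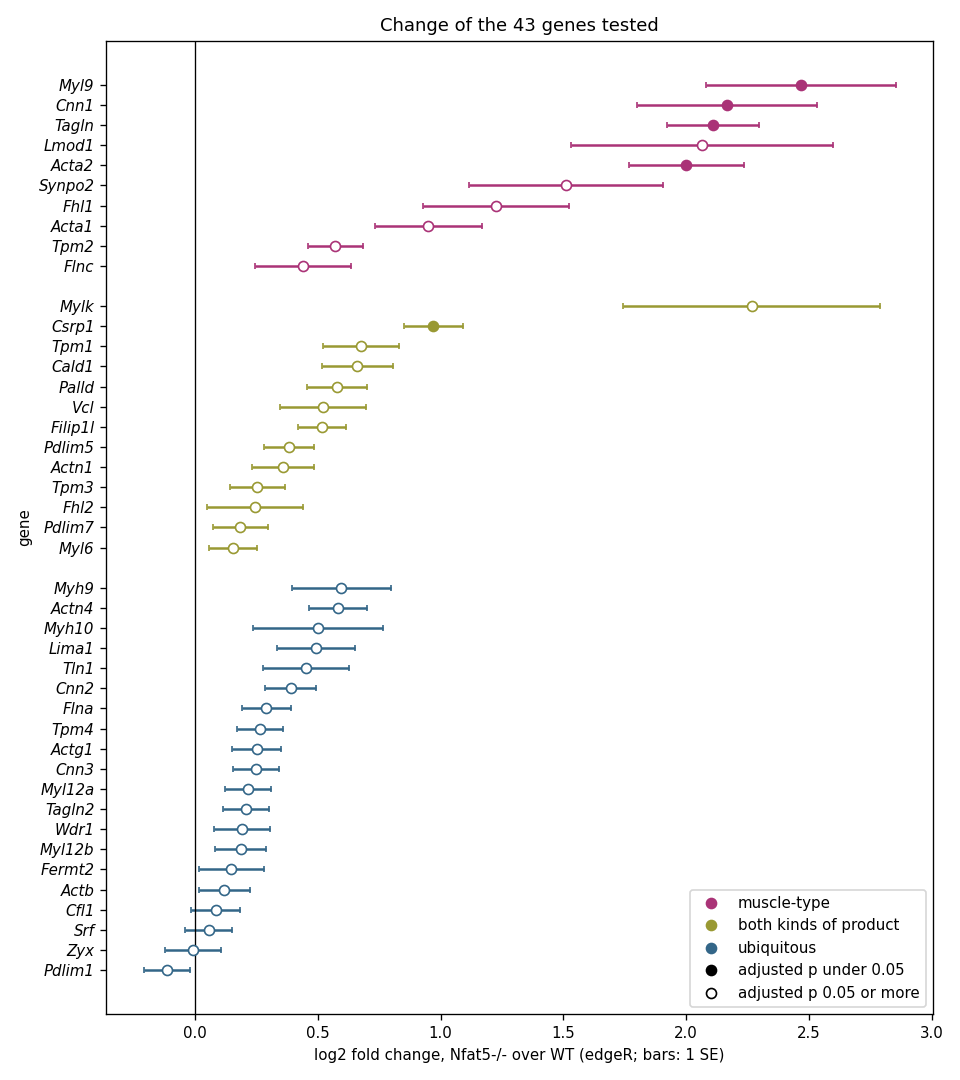
Log2 fold change (Nfat5-/- over WT, edgeR) of the 43 genes tested, with bars of 1 SE, grouped by the kind of product. Filled points mark the 5 genes with an adjusted p under 0.05, which are 4 muscle-type genes between 2.00 and 2.47 and Csrp1 at 0.97, and 2 genes of the ubiquitous group lie below 0.

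The genes were sorted by textbook knowledge into 12 muscle-type genes, 20 ubiquitous genes and 13 genes that give rise to products of both kinds. Earlier results of these data were known when the classes were set. Levels in WT KCs spanned from a mean of 0.0433 RPKM for Mylk, the gene for smooth muscle myosin light chain kinase, to 2911 RPKM for Actg1 among the genes tested. The muscle-type genes that were tested had a median WT level of 12.7 RPKM and the ubiquitous genes one of 226 RPKM. The plot of levels by library shows these ranges.

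**Figure D2:**
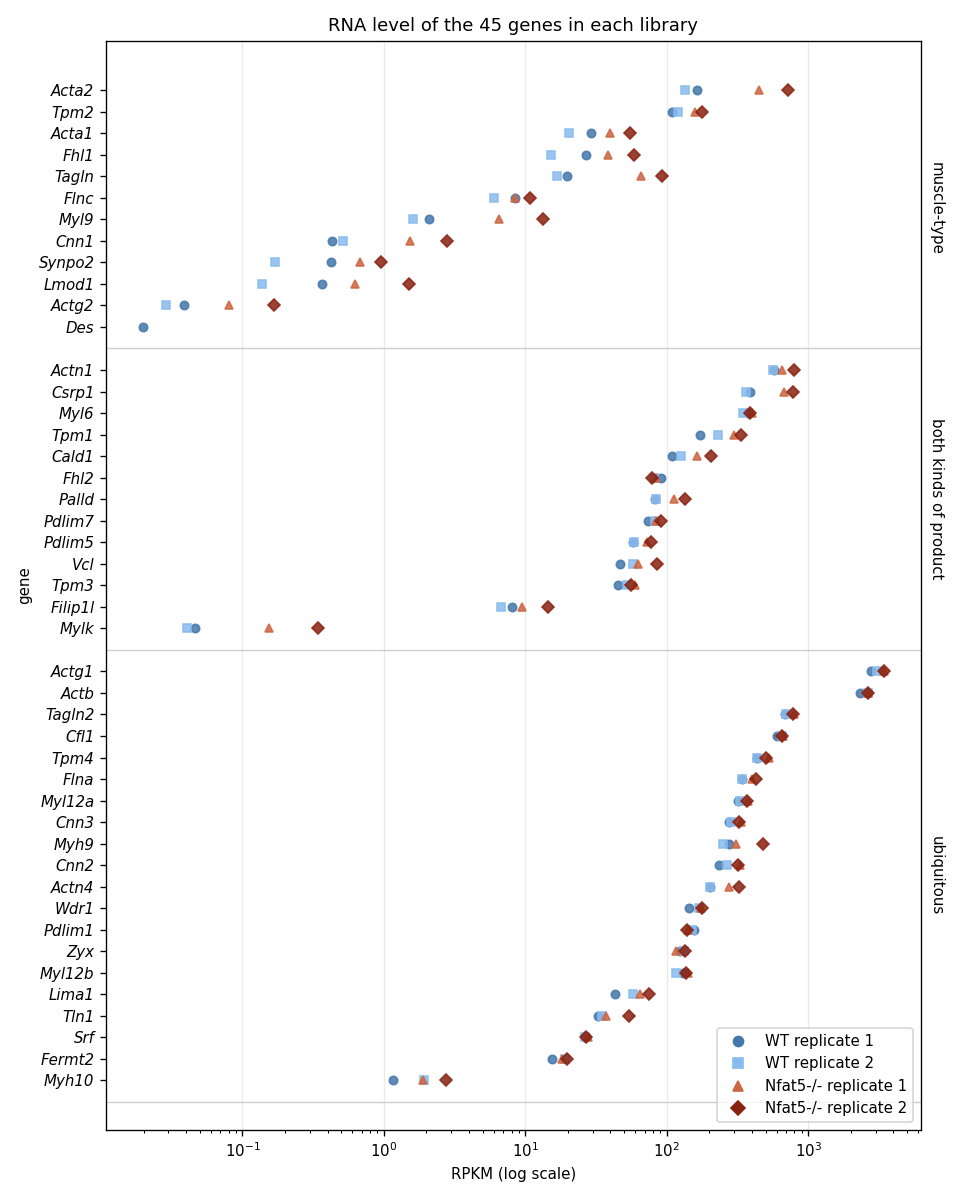
RPKM of each of the 45 genes in each of the 4 libraries on a log scale, grouped by kind of product and sorted by level. For muscle-type genes such as Acta2 and Tagln the Nfat5-/- points stand clear of the WT points, whereas for Actb and Actg1, the 4 points nearly coincide, and values of 0, as for Des in 3 libraries, are not drawn.

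Srf, the factor that gives the group its name, was expressed at 26.8 and 26.3 RPKM (WT) against 27.7 and 26.7 RPKM (Nfat5-/-). The Nfat5-/- values overlapped the WT values, and the difference was within the error (log2 fold change 0.05 ± 0.10 SE, adjusted p = 0.842). To show what SRF can read at these genes, windows of 300 bases around the RefSeq gene starts (250 before, 50 after, build GRCm38.p6) were searched for the CArG box, taken as a pair of C, 6 bases that are A or T, and a pair of G. The pattern reads the same on both strands. A window was on hand for 42 of the 45 genes, all but Actb, Actg2 and Tagln, and 12 of these 42 (28.6%) held an exact match, against 1.81% of 27025 genes in RefSeq and 1.58% of 9727 genes tested for expression. Since known SRF targets were among the genes chosen, the share is a description of the choice. A near match, in which 1 of the 6 central bases is C or G, was held by 6 of the 42 genes (14.3%), beside 9.69% of all genes.

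These promoters are printed because they hold the boxes of called muscle-type genes (Myl9 and Acta2), of a ubiquitous family member (Actg1) and of the regulator itself (Srf). Each is the 250 bases before the RefSeq start, 5′ to 3′ on the strand of the gene, and capitals mark exact or near CArG boxes.
Myl9 (chr2:156775214-156775463, plus strand): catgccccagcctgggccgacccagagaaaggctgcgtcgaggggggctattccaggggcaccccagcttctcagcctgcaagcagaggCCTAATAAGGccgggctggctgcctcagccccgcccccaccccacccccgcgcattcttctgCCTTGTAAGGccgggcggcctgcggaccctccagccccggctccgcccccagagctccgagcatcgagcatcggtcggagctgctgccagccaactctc
Acta2 (chr19:34255374-34255623, minus strand): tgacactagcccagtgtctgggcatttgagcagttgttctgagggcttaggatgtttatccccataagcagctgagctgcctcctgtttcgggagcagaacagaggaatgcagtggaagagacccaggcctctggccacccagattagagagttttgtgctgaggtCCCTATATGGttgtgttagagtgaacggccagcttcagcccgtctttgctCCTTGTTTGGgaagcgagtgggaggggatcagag
Actg1 (chr11:120348496-120348745, minus strand): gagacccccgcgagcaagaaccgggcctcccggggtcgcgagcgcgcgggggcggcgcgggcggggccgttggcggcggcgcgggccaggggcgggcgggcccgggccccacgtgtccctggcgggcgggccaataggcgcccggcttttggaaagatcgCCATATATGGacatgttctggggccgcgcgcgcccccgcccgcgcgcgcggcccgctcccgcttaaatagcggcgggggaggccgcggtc
Srf (chr17:46556163-46556412, minus strand): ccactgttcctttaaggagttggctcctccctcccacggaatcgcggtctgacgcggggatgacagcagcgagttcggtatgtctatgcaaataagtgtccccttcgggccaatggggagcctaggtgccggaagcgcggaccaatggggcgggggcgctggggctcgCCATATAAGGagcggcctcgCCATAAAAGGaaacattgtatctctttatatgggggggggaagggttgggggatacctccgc
In Myl9 an exact box began 161 bases before the start and a near box 99 bases before it. Acta2 held no exact box in this window and 2 near boxes, 84 and 34 bases before the start. The box of Actg1 began 90 bases before the start, and Srf had a pair of exact boxes, 82 and 62 bases before its start. A match is a description of letters and not a measurement of binding.

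The median change was equal in genes with and without an exact box. The 12 tested genes with an exact box had log2 fold changes from 0.05 to 2.47 with a median of 0.44 and 1 called gene, Myl9. The 29 tested genes with a window but no exact box ranged from -0.11 to 2.27, also with a median of 0.44, and 3 were called. By kind of product, 3 of 10 muscle-type genes (30.0%), 4 of 13 genes with both kinds of product (30.8%) and 5 of 19 ubiquitous genes (26.3%) held an exact box, while 4 of the 10 muscle-type genes and 1 of the 19 ubiquitous genes held a near box.

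**Figure D3:**
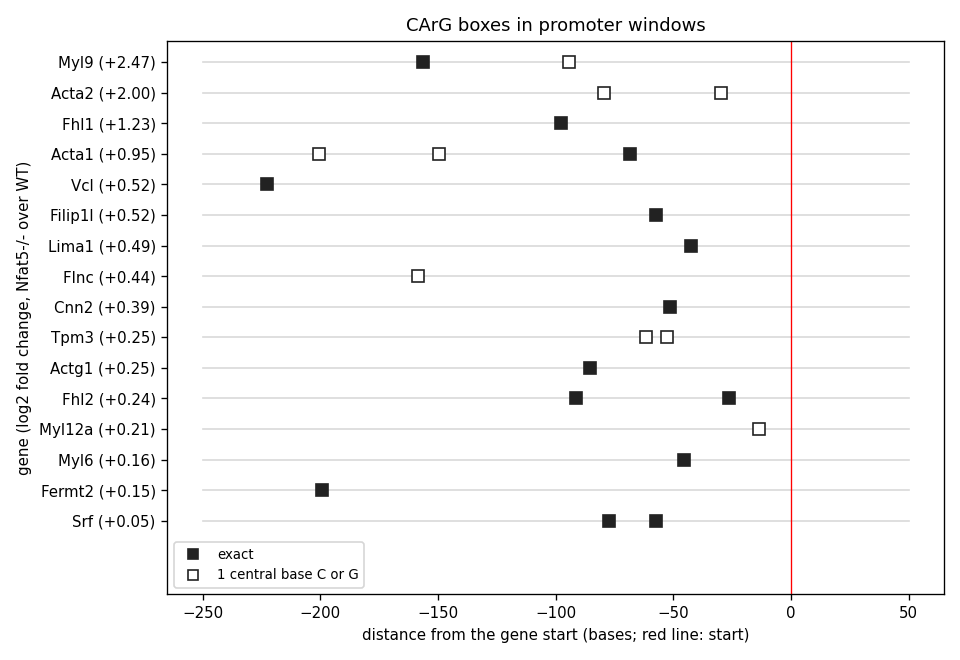
Position of exact (filled) and near (open) CArG boxes, plotted by their centre in bases from the RefSeq start (red line), in the windows of the genes that hold any, sorted by log2 fold change. Exact boxes occur at genes with large changes (Myl9, 2.47) and small ones (Srf, 0.05), and all boxes lie before the start.

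Among the actins, the monomers that make up the filaments, Acta2 (smooth muscle alpha-actin) was 164 and 134 RPKM (WT) against 449.9 and 723 RPKM (Nfat5-/-). Both Nfat5-/- libraries were far above both WT libraries, replicate 2 the higher, and Acta2 rose with a log2 fold change of 2.00 ± 0.23 SE (adjusted p = 0.0192). The gene lies on chromosome 19 at 34241090 to 34255336 (GRCm38). Acta1 (skeletal muscle alpha-actin) was 29.3 and 20.3 RPKM (WT) against 39.4 and 54.7 RPKM (Nfat5-/-). Its groups did not overlap, but the difference did not pass the test (0.95 ± 0.22 SE, adjusted p = 0.102). DESeq2 called the gene (adjusted p = 0.00227). The log2 fold change was 1.24 without WT replicate 1 and 0.68 without Nfat5-/- replicate 2. Only 23.7% of its exon reads were placed at a single site, the gene overlaps Gm20388, and with those reads alone the log2 fold change was 0.93 (adjusted p = 0.117).

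The cytoplasmic actins were the most abundant members. Actb was 2322 and 2639 RPKM (WT) against 2662 and 2649 RPKM (Nfat5-/-), a difference smaller than the spread of the WT libraries (0.12 ± 0.10 SE, adjusted p = 0.662). Actg1 was 2771 and 3051 RPKM (WT) against 3421 and 3412 RPKM (Nfat5-/-), which kept the groups apart without passing the test (0.25 ± 0.10 SE, adjusted p = 0.311). Actg2, the enteric smooth muscle actin, had 1, 2, 5 and 6 reads in the 4 libraries and was not tested. The RPKM of the 5 actin genes summed to 5286 and 5844 in WT and 6572 and 6838 in Nfat5-/- KCs, a ratio of 1.20. Within that sum the muscle-type actins made up 3.65% and 2.64% in WT and 7.45% and 11.4% in Nfat5-/- KCs, that is 3.14% ± 0.717 (SD, n = 2) against 9.41% ± 2.78 (SD, n = 2). From uniquely placed reads per exon length the shares were 3.37%, 2.47%, 7.27% and 11.2%, so the difference was as large in uniquely placed reads.

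The thin filament proteins lie along actin filaments and steady them or set their access to myosin. All 11 had positive log2 fold changes, from 0.21 to 2.17 with a median of 0.57, and 2 passed the test. Tagln (transgelin, SM22-alpha), an actin-binding protein of smooth muscle, was 19.7 and 16.7 RPKM (WT) against 66.3 and 93.1 RPKM (Nfat5-/-). Both Nfat5-/- libraries exceeded both WT libraries by a wide margin, and Tagln rose with a log2 fold change of 2.11 ± 0.19 SE (adjusted p = 0.00768). It lies on chromosome 9 at 45929619 to 45936058, where it overlaps Pcsk7 on the other strand, and no source says that reads were counted by strand. Cnn1 (smooth muscle calponin) was 0.433 and 0.514 RPKM (WT) against 1.54 and 2.80 RPKM (Nfat5-/-), from 20, 30, 98 and 141 reads. It rose as well, from a low level (2.17 ± 0.37 SE, adjusted p = 0.0440), on chromosome 9 at 22099216 to 22109630. The Cnn1 call was lost without Nfat5-/- replicate 1 (adjusted p = 0.0668) and without replicate 2 (adjusted p = 0.275), while those of Acta2 and Tagln held in every alternative run, leaving out each library included.

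The ubiquitous relatives of these genes lay at higher levels and differed less. Tagln2 was 681 and 699 RPKM (WT) against 789 and 784 RPKM (Nfat5-/-) (0.21 ± 0.09 SE, adjusted p = 0.366). Cnn2 was 235 and 266 RPKM (WT) against 329 and 317 RPKM (Nfat5-/-) (0.39 ± 0.10 SE, adjusted p = 0.148). Cnn3, the acidic calponin, was 275 and 286 RPKM (WT) against 334 and 323 RPKM (Nfat5-/-) (0.25 ± 0.09 SE, adjusted p = 0.298). In each of these genes the groups were apart but the test was not passed.

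Tropomyosins wind around the actin filament. Tpm1 was 172 and 229.9 RPKM (WT) against 297 and 337 RPKM (Nfat5-/-) (0.67 ± 0.16 SE, adjusted p = 0.102), and Tpm2 was 109 and 119.8 RPKM (WT) against 159 and 177 RPKM (Nfat5-/-) (0.57 ± 0.11 SE, adjusted p = 0.0671). Tpm4 was 432 and 435 RPKM (WT) against 528 and 499.6 RPKM (Nfat5-/-) (0.26 ± 0.09 SE, adjusted p = 0.269). None of these differences passed the test, though no Nfat5-/- library fell into the WT range. The same holds for Cald1 (caldesmon, an actin- and calmodulin-binding regulator), at 109 and 126 RPKM (WT) against 163 and 205 RPKM (Nfat5-/-) (0.66 ± 0.14 SE, adjusted p = 0.0901). Lmod1 (leiomodin, which starts new actin filaments in smooth muscle) was 0.366 and 0.137 RPKM (WT) against 0.620 and 1.51 RPKM (Nfat5-/-), from 25, 15, 64 and 118 reads. Its log2 fold change was 2.07 with an SE of 0.53 and did not pass the test (adjusted p = 0.136). It was 2.71 without WT replicate 1 and 1.32 without Nfat5-/- replicate 2, and DESeq2 called the gene (adjusted p = 0.0245). Tpm3, the remaining gene of the group, had a log2 fold change of 0.25, with 35.5% of its exon reads placed uniquely.

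Myosin II pulls on actin filaments and consists of heavy chains, essential light chains and regulatory light chains, the last being phosphorylated by myosin light chain kinase. All 7 genes had positive log2 fold changes with a median of 0.50, and 1 passed the test. Myl9, the regulatory light chain typical of smooth muscle, was 2.08 and 1.60 RPKM (WT) against 6.51 and 13.2 RPKM (Nfat5-/-), from 39, 40, 178 and 289 reads. The Nfat5-/- libraries differed from each other by more than the whole WT level, yet both were above it. On total gene reads Myl9 rose with the largest log2 fold change of the 43 genes (2.47 ± 0.39 SE, adjusted p = 0.0361). On exon reads that of Mylk was larger (2.50 against 2.44). Myl9 lies on chromosome 2 at 156775420 to 156781658. Its call was lost without Nfat5-/- replicate 2, where its log2 fold change was 1.84. Mylk was 0.0461 and 0.0404 RPKM (WT) against 0.154 and 0.341 RPKM (Nfat5-/-), from 8, 9, 32 and 56 reads, and the difference did not pass the test (2.27 ± 0.52 SE, adjusted p = 0.102). Its log2 fold change was 1.58 without Nfat5-/- replicate 2. With 8 and 9 reads in WT, Mylk passed the filter on low counts only through the group where it is high. It was not tested when at least 10 reads were required in every library, and the counts over the 43 genes include it.

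Myh9, the main nonmuscle heavy chain of these KCs, was 277 and 251 RPKM (WT) against 308 and 477 RPKM (Nfat5-/-). The excess lay mostly in Nfat5-/- replicate 2, and the test was not passed (0.60 ± 0.20 SE, adjusted p = 0.247). Myl6, the essential light chain and the most abundant myosin gene of the group in WT, was 373 and 346 RPKM (WT) against 399.7 and 390.3 RPKM (Nfat5-/-) (0.16 ± 0.10 SE, adjusted p = 0.524). The other regulatory light chains Myl12a and Myl12b had log2 fold changes of 0.21 and 0.18. Myh10, the second nonmuscle heavy chain, had a log2 fold change of 0.50 at levels of 1.17 to 2.76 RPKM, where the groups overlapped.

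Crosslinkers and adhesion proteins tie actin filaments to each other and to integrins. Of the 10 genes none was called by edgeR, 7 had an unadjusted p under 0.05, and the median log2 fold change was 0.45. DESeq2 called Actn4 (adjusted p = 0.000799), Palld (adjusted p = 0.00169) and Synpo2 (adjusted p = 0.0155). Actn4 (alpha-actinin 4) was 203 and 202 RPKM (WT) against 275 and 324 RPKM (Nfat5-/-) (0.58 ± 0.12 SE, adjusted p = 0.0739), and Palld (palladin, an alpha-actinin partner in stress fibres) was 82.1 and 84.4 RPKM (WT) against 112 and 134 RPKM (Nfat5-/-) (0.58 ± 0.12 SE, adjusted p = 0.0811). These were the smallest edgeR adjusted p-values of the 10 genes. Actn1, the most abundant of them, was 572 and 567 RPKM (WT) against 648 and 791 RPKM (Nfat5-/-) (0.36 ± 0.13 SE, adjusted p = 0.264). Flna (filamin A) was 341 and 342 RPKM (WT) against 399 and 425 RPKM (Nfat5-/-) (0.29 ± 0.10 SE, adjusted p = 0.247).

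At focal adhesions, the sites where filaments meet integrins, Vcl (vinculin), a gene that overlaps Ap3m1, was 46.6 and 57.3 RPKM (WT) against 62.3 and 84.8 RPKM (Nfat5-/-) (0.52 ± 0.18 SE, adjusted p = 0.242). Tln1 (talin, the integrin activator) was 32.8 and 34.8 RPKM (WT) against 37.5 and 53.7 RPKM (Nfat5-/-) (0.45 ± 0.17 SE, adjusted p = 0.303). Without Nfat5-/- replicate 2 the log2 fold changes of Tln1 and Vcl were 0.15 and 0.27, and that of Actn1 was 0.19. Synpo2 (myopodin, a muscle Z-disc protein) was less abundant than these genes. It was 0.421 and 0.170 RPKM (WT) against 0.674 and 0.960 RPKM (Nfat5-/-), higher in both Nfat5-/- libraries (1.51 ± 0.39 SE, adjusted p = 0.141). Synpo2 was called without WT replicate 1 (2.28, adjusted p = 0.00658) and by DESeq2 (adjusted p = 0.0155). All 10 genes of this role were higher in Nfat5-/- replicate 2 than in replicate 1, beside 42.4% of all genes tested. Zyx (zyxin, a sensor of filament tension), at 116 to 134 RPKM, had a log2 fold change of -0.01, which changed sign when WT replicate 2 was left out (0.03) and when Nfat5-/- replicate 1 was (0.11). Flnc (filamin C of striated muscle) had a log2 fold change of 0.44, with WT replicate 1 and Nfat5-/- replicate 1 both at 8.48 RPKM, and Fermt2 (kindlin-2) one of 0.15.

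LIM domain proteins bind alpha-actinin, zyxin or the filament itself. Csrp1 (cysteine and glycine-rich protein 1, an alpha-actinin and zyxin partner) was 390.3 and 361 RPKM (WT) against 673 and 779 RPKM (Nfat5-/-). It was the most abundant of the called genes, and the change was nearly 2-fold with little spread (0.97 ± 0.12 SE, adjusted p = 0.0203). Csrp1 lies on chromosome 1 at 135720061 to 135752232, and its call was lost without Nfat5-/- replicate 2 (adjusted p = 0.0881). Fhl1, a LIM protein typical of striated muscle, was 27.0 and 15.1 RPKM (WT) against 38.3 and 58.6 RPKM (Nfat5-/-), and the WT libraries lay as far from each other as WT replicate 1 lay from Nfat5-/- replicate 1 (1.23 ± 0.30 SE, adjusted p = 0.114). Lima1 (EPLIN, which links junctions to actin) was 42.9 and 57.9 RPKM (WT) against 65.0 and 75.3 RPKM (Nfat5-/-) (0.49 ± 0.16 SE, adjusted p = 0.228).

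Pdlim5, a PDZ and LIM protein of the Z-disc and stress fibres, was 57.8 and 58.9 RPKM (WT) against 72.1 and 78.0 RPKM (Nfat5-/-) (0.38 ± 0.10 SE, adjusted p = 0.148). Its relative Pdlim1 was lower in both Nfat5-/- libraries, at 142 and 138 RPKM against 155 and 151 RPKM, without passing the test (-0.11 ± 0.09 SE, adjusted p = 0.638). Pdlim7 had a log2 fold change of 0.18. Fhl2, a LIM-only partner of SRF, had a log2 fold change of 0.24 on total gene reads (adjusted p = 0.626), a value that includes 2036 intron reads in Nfat5-/- replicate 1, and on exon reads its log2 fold change was -0.07.

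Among genes of actin turnover, Cfl1 (cofilin, which severs filaments) was 603 and 656 RPKM (WT) against 667 and 648 RPKM (Nfat5-/-), with overlapping groups (0.08 ± 0.10 SE, adjusted p = 0.752). Wdr1, the cofilin helper, had a log2 fold change of 0.19. Filip1l (filamin A-interacting protein 1-like) was 8.05 and 6.77 RPKM (WT) against 9.48 and 14.5 RPKM (Nfat5-/-) (0.52 ± 0.10 SE, adjusted p = 0.0601). Most of its gene reads were intron reads (5111, 7083, 10606 and 8183 in the 4 libraries), the gene overlaps Cmss1 on the other strand, and from exon reads its log2 fold change was 0.71 (adjusted p = 0.170). Of those exon reads 0.666% were placed uniquely, so both values are uncertain. Des (desmin, the muscle intermediate filament protein) had 1 read in all 4 libraries and was not tested.

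Seen by library, the median of the muscle-type genes lay apart in both Nfat5-/- libraries and by unequal amounts. Their median log2 CPM, relative to the WT mean of each gene, was 0.22 in WT replicate 1, -0.22 in WT replicate 2, 1.31 in Nfat5-/- replicate 1 and 2.09 in Nfat5-/- replicate 2. Flnc did not lie apart on this scale, at 0.250 in Nfat5-/- replicate 1 and 0.257 in WT replicate 1. All 10 tested muscle-type genes had more RPKM in Nfat5-/- replicate 2 than in replicate 1, and 9 of the 20 ubiquitous genes did. For genes with both kinds of product the medians were -0.01, 0.01, 0.42 and 0.56 in the same order, and for ubiquitous genes -0.03, 0.03, 0.21 and 0.24. As log2 fold changes the medians were 1.76 (range 0.44 to 2.47) for muscle-type genes, 0.52 (0.16 to 2.27) for genes with both kinds of product and 0.23 (-0.11 to 0.60) for ubiquitous genes. The 2.27 is that of Mylk, which entered the test only through its Nfat5-/- reads. With at least 10 reads required in every library the median for genes with both kinds of product was 0.45 over 12 genes. Muscle-type genes gave 4 calls, genes with both kinds of product 1 and ubiquitous genes 0, although 9 genes of each kind had an unadjusted p under 0.05. In the same order the calls were 10, 9 and 6 without the filter on low counts, beside 1137 of 18043 genes in all. By DESeq2 they were 8, 6 and 2, beside 427 of 12614 genes. Leaving out Nfat5-/- replicate 2 lowered the calls of muscle-type genes and of genes with both kinds of product. A log2 fold change of at least 1 was reached by 7 of the 10 muscle-type genes and by 8 of all 43 genes, beside 3.29% of all genes tested. Muscle-type genes were also the less abundant, the ranges of the kinds overlapped, and the difference between kinds was not tested. Genes and kinds were chosen with earlier results of these data known.

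**Figure D4:**
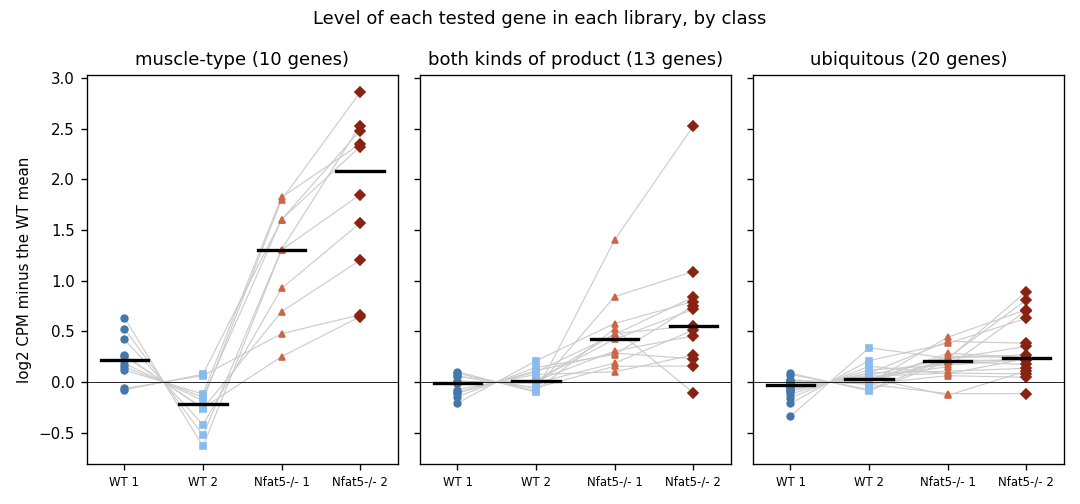
Log2 CPM of each tested gene minus its WT mean, in the 4 libraries (WT 1, WT 2, Nfat5-/- 1, Nfat5-/- 2), for 10 muscle-type genes, 13 genes with both kinds of product and 20 ubiquitous genes. Grey lines join the values of a gene and imply no order of libraries, and black bars are the medians, which reach 1.31 and 2.09 in the Nfat5-/- libraries for muscle-type genes and 0.21 and 0.24 for ubiquitous genes.

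Within families, the share of RPKM held by a muscle-type gene was set beside that of its relatives. Tagln held 2.81% and 2.33% of the Tagln and Tagln2 total in WT and 7.74% and 10.6% in Nfat5-/- KCs. Myl9 held 0.458% and 0.359% of the regulatory light chain total in WT and 1.24% and 2.56% in Nfat5-/- KCs, and Cnn1 held 0.0850% and 0.0931% of the calponin total in WT and 0.232% and 0.436% in Nfat5-/- KCs. The ratios of the mean shares (Nfat5-/- over WT) were 3.57, 4.65 and 3.75, beside 2.99 for the muscle-type actins. In all 4 families the groups did not overlap, and the ubiquitous members still made up most of the RNA in every library. For tropomyosins the share of Tpm1, a gene with both kinds of product, and Tpm2, sorted here as muscle-type, together went from 37.1% and 41.7% in WT to 43.7% and 48.0% in Nfat5-/- KCs, a ratio of 1.16. Flnc held 2.43% and 1.72% of the filamin total in WT and 2.08% and 2.50% in Nfat5-/- KCs, and Myh10, itself a ubiquitous gene, held 0.420% and 0.765% of the Myh9 and Myh10 total in WT and 0.605% and 0.574% in Nfat5-/- KCs, so that for both the groups overlapped. These shares are descriptions of the libraries and were not tested.

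**Figure D5:**
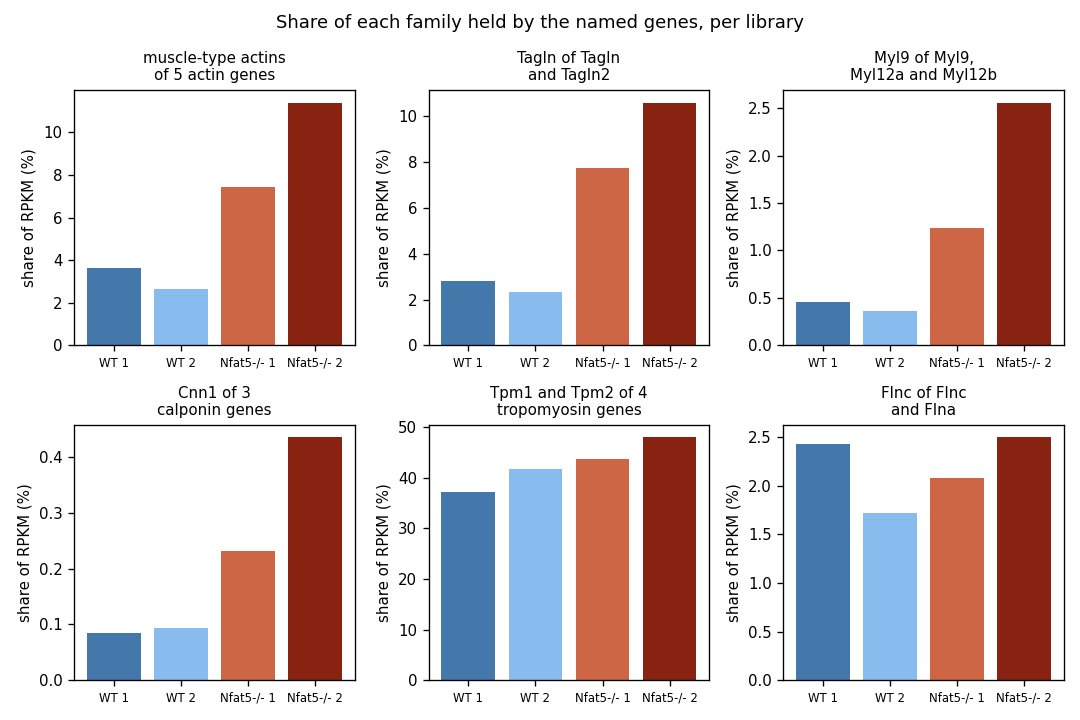
Share of the RPKM of a gene family (percent, axis from 0) held in each library by its muscle-type genes, or for tropomyosins by Tpm1 and Tpm2 together, 1 bar per library, for 6 families. For actins, transgelins, regulatory light chains and calponins both Nfat5-/- bars exceed both WT bars, with ratios of the means from 2.99 to 4.65, tropomyosins differ by a ratio of 1.16, and for filamins the bars overlap.

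Genes up- and downstream of SRF that are not among the 45 were read from lists of their own. Over 3 lists (SRF cofactors, myosin phosphatase and further myosins, further SRF-MRTF targets) 30 of 33 genes were tested, 22 had a positive and 8 a negative log2 fold change, the median was 0.20, and 1 was called. Of the SRF cofactors 2 of 5 tested were positive and 0 were called (0 with an unadjusted p under 0.05), with Mkl1 (MRTF-A) at 18.3 and 19.0 RPKM (WT) against 16.9 and 19.0 RPKM (Nfat5-/-). Myocd, the gene for myocardin, had no reads in any library. Of 18 further SRF-MRTF targets 15 were positive with a median of 0.24 and 0 were called (5 with an unadjusted p under 0.05), among them Ctgf, a secreted matricellular protein, at 247 and 231 RPKM (WT) against 320 and 379 RPKM (Nfat5-/-) (0.57, adjusted p = 0.0867).

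The called gene was Myh11, the smooth muscle myosin heavy chain, on the list of 9 genes of myosin phosphatase and further myosins, of which 7 were tested and 5 positive with a median of 0.33. It had 1 and 1 reads in WT and 22 and 40 reads in Nfat5-/- KCs (adjusted p = 0.0435). With WT at or under 3 reads it passed the filter on low counts only through the group where it is high, and with at least 10 reads required in every library 0 genes of the lists were called. The CPM ratio was 27.8, with an exact 95% interval of 7.39 to 235 that covers counting error only. In RPKM it stayed below 0.5 in every library, and the call was lost when exon reads were used or when either Nfat5-/- library was left out.

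Since Acta2, Tagln, Cnn1 and Myl9 are also made by smooth muscle cells, pericytes and myofibroblasts, markers of other cells were read beside them. In bulk RNA more cells of a type and more RNA per cell cannot be told apart. Of 8 smooth muscle markers outside the 45 genes, 3 were tested and all 3 had an unadjusted p under 0.05 (Smtn at 0.37 and Casq2 at -0.28 in log2 fold change), Myh11 alone was called, which entered the test only through its Nfat5-/- reads, Myocd and Pln had no reads, and 6 lay under 0.5 RPKM in every library. Their summed level of 44.1 and 52.0 RPKM (WT) against 50.8 and 55.2 RPKM (Nfat5-/-) was nearly all Smtn and Casq2. Of 6 pericyte markers 1 was tested, Rgs5 and Kcnj8 had no reads, and the summed level was 1.12 and 0.428 RPKM (WT) against 2.56 and 3.73 RPKM (Nfat5-/-). Most of it was Notch3, at 0.972 and 0.348 RPKM (WT) against 2.44 and 3.68 RPKM (Nfat5-/-) (log2 fold change 2.24, adjusted p = 0.0628). Of 10 fibroblast markers 5 were tested, all 5 had positive log2 fold changes (median 0.78), 0 were called (2 with an unadjusted p under 0.05), none was without reads, and 6 lay under 0.5 RPKM in every library. Of these 2, Thy1 had 2 and 5 reads in WT and 19 and 29 reads in Nfat5-/- KCs. Thy1 thus entered the test only through its Nfat5-/- reads. The fibroblast markers summed to 5.03 and 2.46 RPKM (WT) against 6.27 and 10.7 RPKM (Nfat5-/-), mostly Vim at 3.99, 1.61, 4.94 and 7.98 RPKM. The other 5 pericyte markers summed to 0.151 and 0.0800 RPKM (WT) against 0.124 and 0.0514 RPKM (Nfat5-/-), lowest in Nfat5-/- replicate 2. The fibroblast sum and Notch3 thus stood in the same order of libraries as the muscle-type genes, with Nfat5-/- replicate 2 highest and WT replicate 2 lowest, and their part in the change of those genes was not tested.

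The sums of the other lists stood in other orders. The 10 KC markers summed to 14100 and 12100 RPKM (WT) against 12100 and 13900 RPKM (Nfat5-/-), with 4 positive and 5 negative log2 fold changes, and 0 were called (1 with an unadjusted p under 0.05). Of 11 skeletal muscle markers 2 were tested and 0 called (1 with an unadjusted p under 0.05), both with negative log2 fold changes, 5 had no reads, and the sum was 4.34 and 3.55 RPKM (WT) against 2.67 and 3.16 RPKM (Nfat5-/-). Endothelial markers (5 genes) summed to 0.555 to 0.777 RPKM and immune markers (5 genes) to 2.08 to 3.73 RPKM, with 0 called and 0 at an unadjusted p under 0.05 in either list. Of 5 melanocyte markers 4 were tested, all 4 had negative log2 fold changes, 3 had an unadjusted p under 0.05 and 1 was called, Tyrp1 (log2 fold change -2.04, adjusted p = 0.0203), with sums of 7.29 and 6.99 RPKM (WT) against 2.04 and 2.89 RPKM (Nfat5-/-).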

How the data were processed

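Total RNA of the 4 KC cultures was enriched for polyadenylated RNA and sequenced by the authors, who trimmed adapters and mapped the reads to GRCm38 in CLC Genomics Workbench 12.0, using its RNA-Seq defaults. The deposited tables hold, per gene and library, counts made by the authors and not normalized (total, exon, intron and uniquely placed reads) and RPKM values written with decimal commas. The RPKM were computed by the authors as exon reads scaled to exon length and to mapped reads. Whether the counting used strand is not given in the sources used here. Group and replicate number came from the sample titles.

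Total gene reads of all 4 libraries were tested with edgeR 4.0.16 in R 4.3.3: filterByExpr left 12614 genes, TMM factors lay between 0.980 and 1.01, and a quasi-likelihood model with genotype as its term gave two-sided p-values, adjusted by Benjamini-Hochberg over these genes (threshold 0.05). The SE is that of the log2 fold change. The code was tested on simulated data. The alternatives were RLE factors, library totals as scaling, no filter on low counts, at least 10 reads in every library, DESeq2 1.42.0, exon reads, uniquely placed exon reads, limma-trend (limma 3.58.1) on log2(RPKM + 1) or log2(RPKM + 0.1) for genes with at least 0.5 RPKM in 2 libraries, a replicate block, and leaving out each library in turn. Replicates differed beyond sampling noise (chi-square per degree of freedom 17.3 in WT and 18.4 in Nfat5-/-). Introns took 1.79% to 1.97% of the reads.

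The 45 genes, their classes and the lists were chosen with earlier results of these data known. A further list of pathway genes is not reported here. Values per library are given for Srf, the actins, each called gene, each gene with an unadjusted p under 0.05 whose groups do not overlap, and the most abundant gene of each role by mean WT level. Promoter windows came from RefSeq (GRCm38.p6), matched by symbol.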

Additional observations from a re-analysis of the deposited data

Results flagged for a closer look

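Intron reads were not used in the comparison on their own. Fhl2 had 2036 intron reads in Nfat5-/- replicate 1, beside 107 and 140 in the WT libraries and 92 in Nfat5-/- replicate 2. It stands out because it is more than 3 times the highest WT level in CPM with at least 100 reads. The exon reads of Fhl2 gave 83.6 RPKM in that library, inside the WT range of 80.6 to 90.9 RPKM, so the positive log2 fold change of 0.24 on total reads rests on the intron reads of 1 library.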

How the results depend on the processing

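Acta2 and Tagln were called under every alternative, with adjusted p-values up to 0.0429 and 0.0308. Over the alternatives the adjusted p of Csrp1 lay between 1.95e-14 and 0.0881, that of Myl9 between 6.13e-21 and 0.161 and that of Cnn1 between 6.53e-11 and 0.275. Csrp1 and Myl9 were lost without Nfat5-/- replicate 2, and Cnn1 without either Nfat5-/- library and with limma-trend on log2(RPKM + 1) (adjusted p = 0.050). Without the filter on low counts 25 of the 45 genes were called (10 muscle-type, 9 with both kinds of product, 6 ubiquitous), 1137 of all genes (63.6% of them higher, beside 74.4% with the filter) and 6 of the pathway lists. DESeq2 called 16 (8, 6 and 2), with 427 of all genes and 2 of the pathway lists. Of the pathway lists 0 genes were called with at least 10 reads in every library, with exon reads and with limma-trend at either pseudocount. The cause of these differences was not tested.

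Leaving out each library in turn gave 2 to 9 called genes of the 45 (lowest without Nfat5-/- replicate 2, 8 without WT replicate 1, 9 without WT replicate 2), with 2 to 7 muscle-type genes, 0 to 3 with both kinds of product, 0 to 1 ubiquitous and 0 to 1 of the pathway lists, beside 16 to 478 of all genes. In these fits a lone library is assumed to vary like the other group. The median log2 fold change then ranged from 1.26 to 2.13 for muscle-type genes, 0.39 to 0.56 for genes with both kinds of product and 0.20 to 0.28 for ubiquitous genes, and that of Zyx from -0.13 to 0.11 (0.03 without WT replicate 2). The muscle-type median was 0.99 with limma-trend on log2(RPKM + 1), a scale that shrinks low genes, and 0.66 with genes of both kinds counted as muscle-type. The difference in the muscle-type share of actin RPKM was 6.27 points, and 4.30 to 8.23 with a library left out. Samples that share a replicate number did not deviate together (correlation of deviations -0.0652), so the numbers were not taken as pairs. With the replicate number as a block 5 of the 45 genes, 132 of all genes and 1 of the pathway lists were called, and the block changed no call among the 45 genes. RLE factors and library totals called the same 5 genes. The depth limits Cnn1, Myl9, Lmod1, Mylk and Actg2, which rest on few reads.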
